A study of Mus musculus with 48 samples.

Results

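The structural myelin protein genes are the 9 genes Mbp, Mog, Mag, Cnp, Mobp, Mal, Opalin, Cldn11 and Tspan2, which encode proteins of the sheath that oligodendrocytes wrap around axons. They were chosen by name: 14 of the 55681 non-control probes on the array carried one of these gene names, out of 24795 gene names in all. The names were set by what the genes encode and not by their measured levels, though earlier results of these data were known when they were chosen. Their mRNA was followed in cells taken from the brains of mouse pups, in O4+ cells, the oligodendrocyte lineage, and also in CD11B+ cells, the microglial fraction, which is not a myelin-forming lineage.

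The study asked how systemic inflammation around birth changes maturing oligodendrocytes and microglia. Male pups of an outbred strain (Swiss in the labels, OF1 in the methods) received interleukin-1 beta (IL1B) at 10 ng/g body weight or the vehicle, phosphate-buffered saline (PBS), by intraperitoneal injection from postnatal day 1 (P1) to P5. Brains were collected at P5, shortly after the last injection, or at P10, which left days without injection. O4+ cells and then CD11B+ cells were separated with magnetic beads from the same tissue. The 8 groups were thus O4+ or CD11B+ cells, after PBS or IL1B, at P5 or P10, with 6 arrays in each. No genetic alteration was present in any group. Per the methods, each sample pooled 3 brains without cerebellum and olfactory bulbs, so its value is a mean over animals. The methods do not say from how many litters the pools came, and the p-values measure the spread between such pools.

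Myelin is built by mature oligodendrocytes in a burst during the first postnatal weeks of rodents. Its genes are switched on together late in the lineage, after progenitors have left the cell cycle, under transcription factors such as SOX10 and MYRF. The compacted part of the sheath holds adhesive proteins between its membrane layers, while other proteins sit in the uncompacted channels, at the inner surface facing the axon, or on the outermost layer.

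Within the group, Mbp encodes myelin basic protein, which holds the cytoplasmic faces of compact myelin together. Mobp encodes myelin-associated oligodendrocyte basic protein, another small basic protein of compact myelin. Mal encodes a proteolipid involved in sorting to the myelin membrane. Cldn11 encodes the claudin of the tight junction strands between the layers, and Tspan2 a tetraspanin of the oligodendrocyte membrane. Cnp encodes the phosphodiesterase of the cytoplasmic channels. Mag encodes the adhesion protein of the inner, axon-facing membrane, and Mog the immunoglobulin-like protein of the outermost surface. Opalin encodes a transmembrane glycoprotein of mature oligodendrocytes. Mal, Mag and Mbp are also used by Schwann cells, the myelin-forming cells of peripheral nerves.

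In the mouse build mm9 given in the array files, the single probes lay at chr17:37148277-37148336 for Mog on the minus strand and at chr7:31684202-31684261 for Mag on the minus strand. The Cnp probe lay at chr11:100442617-100442676 on the plus strand and the Mal probe at chr2:127458976-127459035 on the minus strand. The Cldn11 probe lay at chr3:31062922-31062981 on the plus strand. The Opalin probe, chr19:41138452-41141030 on the minus strand, had a span wider than a probe, so that it joins separate stretches of the transcript. Mobp had 3 probes on the plus strand of chromosome 9, of which the one at chr9:120085150-120085209 stood for the gene. Tspan2 had 2 on the plus strand of chromosome 3, of which the one at chr3:102576043-102576102 stood for the gene. Mbp had 3 probes, described on their own further on. Where a gene had several probes, the one with the highest mean level over all arrays stood for it. Exon annotation of the probes was not used here.

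The stretch of 250 bases before the transcription start site is printed for the 3 genes whose O4+ level rose by the largest ratio between P5 and P10, Mobp, Opalin and Mog, and for Cldn11, a gene with no match in its stretch, because the members moved together with age. The sequences are from RefSeq, build GRCm38.p6, 5′ to 3′ in the direction of transcription, with matches to the searched motifs in capitals. They cover chr9:120149492-120149741 (plus strand) for Mobp, chr19:41077114-41077363 (minus strand) for Opalin, chr17:37023399-37023648 (minus strand) for Mog and chr3:31149670-31149919 (plus strand) for Cldn11.
Mobp: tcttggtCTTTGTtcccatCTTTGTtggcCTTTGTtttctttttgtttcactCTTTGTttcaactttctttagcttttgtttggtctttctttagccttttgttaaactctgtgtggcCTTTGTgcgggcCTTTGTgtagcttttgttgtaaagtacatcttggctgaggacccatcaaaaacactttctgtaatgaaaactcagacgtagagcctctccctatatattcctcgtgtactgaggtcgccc
Opalin: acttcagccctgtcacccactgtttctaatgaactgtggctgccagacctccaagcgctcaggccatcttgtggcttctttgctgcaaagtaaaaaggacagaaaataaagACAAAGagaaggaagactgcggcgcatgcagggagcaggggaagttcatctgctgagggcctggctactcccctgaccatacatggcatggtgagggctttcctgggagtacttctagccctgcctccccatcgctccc
Mog: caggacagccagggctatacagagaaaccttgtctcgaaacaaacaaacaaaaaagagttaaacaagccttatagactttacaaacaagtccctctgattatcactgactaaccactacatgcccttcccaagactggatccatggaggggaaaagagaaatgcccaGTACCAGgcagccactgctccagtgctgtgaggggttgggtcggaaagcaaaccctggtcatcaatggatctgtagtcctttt
Cldn11: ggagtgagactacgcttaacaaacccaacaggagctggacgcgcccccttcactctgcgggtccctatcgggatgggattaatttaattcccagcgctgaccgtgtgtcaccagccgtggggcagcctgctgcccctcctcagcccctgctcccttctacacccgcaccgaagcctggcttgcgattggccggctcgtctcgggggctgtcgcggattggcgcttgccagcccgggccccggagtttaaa
The motifs were searched on both strands of 11 such stretches, which belonged to 8 of the genes. The SOX motif ACAAAG was present in 6 of the 11, against 16.5% of 32851 stretches genome-wide. Mobp held 6 matches, all on the reverse strand, where they read CTTTGT, and Opalin held 1 that began 139 bases before the start. The MYRF motif in its form CTGGTAC was present in 1 of the 11, against 1.83% genome-wide, in Mog on the reverse strand, beginning 83 bases before the start. The form CTGGCAC was present in 3 of the 11, against 4.19%, in stretches of Mag and Cnp. The SOX motif ACAATG (10.7% genome-wide), the E-box CAGCTG (13%) and the TATA box TATAAA (12.4%) were present in none of the 11, and the GC box GGGCGG (32.7%) in 1, that of Cnp. Some of the stretches of Mag overlap, so the same ACAAAG site and the same CTGGCAC site of Mag are each counted more than once. A match describes letters only.

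On the 48 arrays, 54.1 to 66.4% of spots were well above background, and arrays of a group correlated at 0.962 or more. Levels are on a log2 scale after quantile normalization, which took in the 24 arrays of the cell type concerned, or 48 where cell types were compared. The arrays lay on 9 slides, and no group lay on a single slide. All 15 microglia genes fixed as markers were above background on every array of both cell types, O4+ cells included. Their mean level in O4+ cells was 13.01 to 13.61 in PBS and 14.27 to 14.71 in IL1B at P5, and 12.15 to 12.82 and 12.57 to 13.21 at P10. The 10 oligodendrocyte transcription factor genes were above background on every O4+ array, and 8 of 10 on every CD11B+ array, so neither fraction was free of the other cell type's markers.

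In O4+ cells of PBS pups, the structural myelin genes rose steeply from P5 to P10. A gene was called changed where limma's p, adjusted over all probes, was below 0.05 and the ratio of the group medians was at least 1.5 in either direction. By this rule 8 of 9 genes rose and none fell, against 7.85% of all probes called higher. The median change over the 9 was 3.05 on the log2 scale, beside 0.02 over all probes. The ninth gene, Mbp, depended on the probe. In bulk samples like these, fewer cells of a type and less RNA per cell cannot be told apart.

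Mobp, the second basic protein of compact myelin, showed the widest change. Its level in PBS O4+ cells ran from 7.81 through a median of 8.83 to 11.76 at P5, and from 16.76 through 16.93 to 17.09 at P10. The P5 arrays were scattered over several log2 units and the P10 arrays lay close together far above them. The change was 7.79 (SE 0.54, limma adjusted p = 7.63e-07), a 269-fold ratio of medians, and the other 2 Mobp probes gave 8.08 and 8.31.

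Opalin, the mature oligodendrocyte glycoprotein, was near background at P5. Its level was 4.02 to 4.83, median 4.35, with 5 of 6 arrays well above background, and 10.46 to 10.84, median 10.70, at P10. Every P10 array was far above every P5 array, and the change was 6.28 (SE 0.12, adjusted p = 8.66e-11), or 81.9-fold. Mog, the outer surface protein, went from 8.34 to 8.69 (median 8.44) at P5 to 12.73 to 13.51 (median 13.09) at P10. It rose by 4.60 (SE 0.12, adjusted p = 7.61e-10), or 25.3-fold, with no overlap.

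Mal, the sorting proteolipid, went from 9.60 to 12.53 (median 11.07) at P5 to 15.37 to 15.71 (median 15.59) at P10. The P5 arrays were spread over nearly 3 log2 units, and the P10 arrays were tight. Mal rose by 4.55 (SE 0.40, adjusted p = 4.33e-06), or 22.8-fold. In both P5 groups the array highest for Mal was replicate 4 and the lowest replicate 3. The mean of the 5 Schwann cell genes was also highest in replicate 4 (10.05 in PBS, 9.19 in IL1B) and lowest in replicate 3 (5.90 and 7.71). Replicate 4 was also highest in both groups for the lipid enzyme, endothelial and leptomeningeal lists. After IL1B it was highest for the astrocyte, neuron, neutrophil and monocyte, and erythroid lists too. The remaining lists peaked in other arrays. The part of these lists in the Mal values was not tested.

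The remaining genes were already high at P5 and rose by less. Tspan2, the tetraspanin, rose by 3.05 (8.54-fold), from a median of 12.63 to 15.72. Mag, the axon-facing adhesion protein, rose by 2.81 (6.96-fold) from a median of 14.39 to 17.18, and Cldn11, the claudin, by 2.79 (7.03-fold) from 13.66 to 16.48. Cnp, the enzyme of the channels, had the smallest called rise, 1.70 (SE 0.07, adjusted p = 1.93e-08), or 3.21-fold, from a median of 15.56 to 17.24. In 8 of 9 genes the P5 and P10 groups did not overlap, against 13% of all probes with P10 higher. No slide held O4+ arrays of both ages, so slide could enter only as a random block, under which all 8 calls were kept. Age and slide cannot otherwise be told apart.

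**Figure D1:**
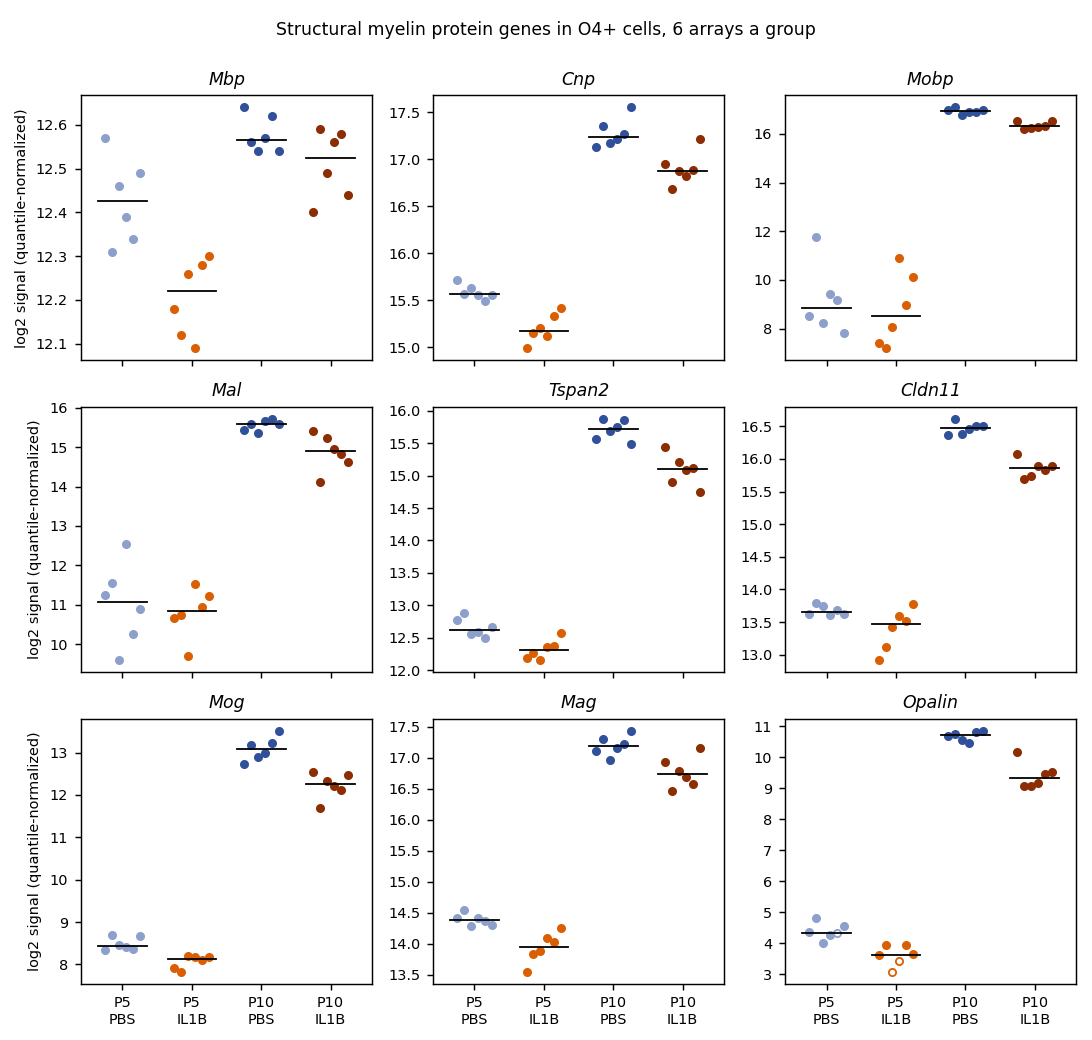
Levels of the 9 structural myelin genes in O4+ cells, one panel per gene, log2 quantile-normalized intensity on the vertical axis, with the 4 groups of 6 arrays along the horizontal axis. Each dot is an array, the line is the group median and open dots were not well above background; Mobp spans 7.81 to 11.76 at P5 after PBS and 16.76 to 17.09 at P10.

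The rise with age was also present after IL1B. From P5 to P10 in IL1B O4+ cells, 8 of 9 genes rose (6.05% of all probes called higher) and all 9 had groups without overlap (11.7% of all probes). Changes of the 8 ran from 1.70 for Cnp through 2.46 for Cldn11 and 4.16 for Mog to 7.58 for Mobp, and that of the middle Mbp probe was 0.31. These groups also serve in the comparisons of IL1B with PBS, so the values are set side by side and not counted as separate support. For these 8 genes the P10 median after IL1B lay at 78.0% (Cldn11) to 92.3% (Mobp) of the way along the log2 rise seen in PBS, with Opalin and Cnp at 78.2%, Tspan2 at 79.9%, Mog at 82.3%, Mag at 83.9% and Mal at 84.5%.

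At P10, 5 days after the last injection day, O4+ cells of IL1B pups had lower levels of most of the structural myelin genes. Opalin, Mog, Mal, Mobp, Cldn11 and Tspan2 fell, which made 6 of 9 lower and none higher, against 1.42% of all probes called lower. Mag and Cnp had an adjusted p under the threshold but a ratio short of it, so 8 of 9 passed on the p alone (5.43% of all probes). The median change of the 9 was -0.62, beside -0.02 over all probes. In 5 of 9 genes the IL1B and PBS groups did not overlap (3.33% of all probes with IL1B lower).

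Opalin was the most affected. Its level was 9.08 to 10.16, median 9.32, after IL1B, against the 10.46 to 10.84 after PBS. Every IL1B array lay below every PBS array. It fell by 1.27 (SE 0.17, adjusted p = 0.00223), a ratio of 0.385, or 2.6-fold lower. Mog was next, with 11.70 to 12.53 (median 12.27) after IL1B against 12.73 to 13.51 after PBS. Its groups also stayed apart, and it fell by 0.87 (SE 0.16, adjusted p = 0.00736), or 1.77-fold.

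The compact myelin and junction genes fell by similar amounts. Mobp was at 16.21 to 16.54 after IL1B (median 16.31) and fell by 0.58 (SE 0.08, adjusted p = 0.00205), or 1.54-fold, while its other 2 probes fell by 0.83 and 1.06. Cldn11 was at 15.70 to 16.08 (median 15.86) and fell by 0.62 (SE 0.07, adjusted p = 0.0012), or 1.54-fold. Tspan2 was at 14.75 to 15.44 (median 15.10) and fell by 0.62 (SE 0.11, adjusted p = 0.00719), or 1.54-fold. For these genes the IL1B arrays lay below all PBS arrays. These 3 ratios lay just past the threshold of 1.5.

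Mal had the least certain of the 6 calls. It ran from 14.12 through 14.89 to 15.40 after IL1B, with its highest array just above the lowest PBS array at 15.37. Its change was -0.71 (SE 0.19, adjusted p = 0.033), or 1.62-fold lower, and the call was lost with slide as a fixed block (-0.84, adjusted p = 0.0598). Leaving out single arrays raised its adjusted p to as much as 0.0697. Mag and Cnp, just outside the threshold, had changes of -0.43 (SE 0.12, adjusted p = 0.0404, ratio 0.732) and -0.38 (SE 0.10, adjusted p = 0.0275, ratio 0.775). With the 5 other called genes, slide as a fixed block left the call in place. Within the slide that held 2 IL1B and 5 PBS arrays, 9 of 9 genes were lower (median -0.57), and within the slide with 1 of each, 9 of 9 (median -0.61).

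Other genes of the lineage were followed by lists. At P10 in O4+ cells, 7 of 21 other sheath, paranode and adhesion genes were lower after IL1B and none was higher (median -0.46). Among these, the lysophosphatidic acid receptor gene Lpar1 fell by 1.14, Tmem125 by 1.06, the tubulin-binding protein gene Tppp by 0.70 and the connexin gene Gjc3 by 0.68. Of 8 myelin lipid enzyme genes 1 was lower, Aspa, the aspartoacylase of oligodendrocytes, which fell by 1.06, and the list median was -0.46. Of 10 lineage transcription factor genes 1 was lower, Nkx6-2, by 1.06, and the median was -0.20. Of 10 progenitor genes 4 were higher and none lower (median 0.50): Pdgfra, the growth factor receptor of progenitors, rose by 0.94, Id2 by 0.76, the proteoglycan gene Cspg4 by 0.76 and Hes5 by 0.68.

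Markers of other cells moved in the same comparison. Higher after IL1B at P10 in O4+ cells were 7 of 15 microglia genes, 4 of 8 neutrophil and monocyte genes, 3 of 6 astrocyte genes, 3 of 6 leptomeningeal fibroblast genes, 2 of 5 erythroid genes, 2 of 8 neuron genes, 1 of 5 Schwann cell genes and 0 of 6 endothelial genes, with none lower. The mean level of the neutrophil and monocyte list was 3.66 to 4.79 after PBS and 4.86 to 6.18 after IL1B, with Ccr2 above background on no array of either group. The astrocyte list was at 9.21 to 9.58 and 9.70 to 10.17, the leptomeningeal list at 8.16 to 9.07 and 8.86 to 9.62, and the erythroid list at 7.83 to 9.33 and 8.74 to 10.30. The neuron list was at 9.25 to 9.68 and 9.40 to 9.80, with Slc17a7 above background on no array. The Schwann cell list was at 6.04 to 8.48 and 5.96 to 8.89. The median change over its genes was -0.67, against the direction of its called gene. The part of these markers in the myelin gene values was not tested.

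**Figure D2:**
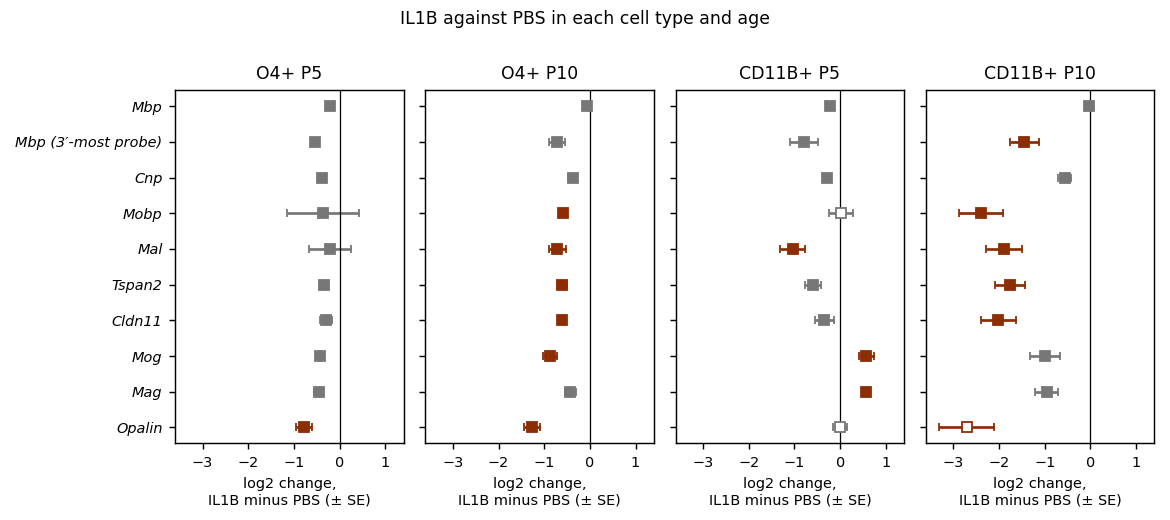
Log2 change of IL1B against PBS for each structural myelin gene, with the limma standard error as bars, in O4+ and CD11B+ cells at P5 and P10, and with the 3′-most Mbp probe beside the probe that stands for Mbp. Brown points passed the call and grey points did not, and open points had at least one group with no array above background; in O4+ cells at P10 Opalin lies at -1.27 and Mog at -0.87.

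At P5, shortly after the last injection, the changes in O4+ cells lay in the same direction. Opalin was the single gene of 9 called lower, against 1.49% of all probes, and none was called higher. By the adjusted p alone 6 of 9 passed (11.5% of all probes), and 5 of 9 did not overlap between groups (6.88%). The median change was -0.37, beside -0.04 over all probes. Opalin was at 3.09 to 3.96 (median 3.64) after IL1B, with 4 of 6 arrays well above background, against 4.02 to 4.83 after PBS. It fell by 0.78 (SE 0.17, adjusted p = 0.00738), or 1.63-fold, at levels close to background. The call was lost with slide as a fixed block (-0.57, adjusted p = 0.188), and the ratio fell short of the threshold under 75th percentile scaling (-0.66) and under another background correction (-0.19).

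The other genes that passed on the p alone at P5 changed by less than 1.5-fold. Mog was at 7.83 to 8.19 (median 8.14) after IL1B, below every PBS array, with a change of -0.42 (adjusted p = 0.00607, ratio 0.816). Mag changed by -0.46 (adjusted p = 0.00943, ratio 0.739) and Cnp by -0.38 (adjusted p = 0.00292, ratio 0.767), each again with no overlap between the groups. Tspan2 changed by -0.34 (adjusted p = 0.0142, ratio 0.807) and the middle Mbp probe by -0.22 (adjusted p = 0.0171, ratio 0.868). Cldn11 did not pass (-0.29, adjusted p = 0.154). Mobp (-0.37, SE 0.79) and Mal (-0.21, SE 0.46) had standard errors larger than their changes, and neither was called. The Mobp value turned to 0.16 without PBS replicate 2, the array with the 11.76. The Mal value turned to 0.09 without PBS replicate 4, to 0.01 without IL1B replicate 3 and to 0.13 with scan day as a fixed block. On the slide with 1 IL1B and 4 PBS arrays 9 of 9 genes were lower (median -0.57), and on that with 1 and 2 arrays 8 of 9 (median -0.61), while 4 of the 6 IL1B arrays lay on a slide without O4+ PBS arrays.

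Markers of other cells also moved at P5. After IL1B, 12 of 15 microglia genes and 8 of 8 neutrophil and monocyte genes were higher in O4+ cells, the second list with a mean of 4.37 to 5.16 after PBS and 7.08 to 9.87 after IL1B. Lower were 4 of 6 endothelial genes, with a list mean of 10.50 to 11.46 after PBS and 10.02 to 10.51 after IL1B, and 1 of 6 leptomeningeal genes. None of the astrocyte, neuron, Schwann cell and erythroid genes was called. Of the lineage lists, 0 of 21 sheath and 0 of 8 lipid genes changed (medians -0.24 and -0.24). Nkx2-2 and Nkx6-2, of 10 transcription factor genes, fell by 0.59 and 0.54 (list median -0.27). Id2 alone of 10 progenitor genes was called and rose by 1.45, while the list median was -0.16. The part of these in the myelin gene values was not tested.

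The change after IL1B was not shown to differ between P5 and P10 in O4+ cells. The interaction was called in 0 of 9 genes (5.32% of all probes negative, 7.83% positive), with Cldn11 at -0.32 (SE 0.15, adjusted p = 0.171), Mog at -0.45 (SE 0.18, adjusted p = 0.125) and Opalin at -0.49 (SE 0.24, adjusted p = 0.222). The second Tspan2 probe alone passed, at -0.46 (SE 0.15, adjusted p = 0.0493). Scaling to the 75th percentile gave 3 of 9 genes, and leaving out replicate 1 of the P5 or of the P10 IL1B arrays gave 1.

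Mbp gave different answers by probe. The probe that stood for the gene by the rule was the middle of 3 along the gene, 36.5 kb downstream of the first, and the files assign it a different transcript from the other 2. The 3′-most probe lay 50.8 kb from the first. Its span of 2305 bases was wider than a probe, as for Opalin, so that it joins separate stretches of the transcript. The other 2 probes each spanned 60 bases. Mbp lies inside a longer transcription unit, golli-Mbp, whose transcripts are also made outside myelinating cells. Which transcripts each probe detects was not tested.

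In PBS O4+ cells the 3′-most probe behaved like the other myelin genes. It was at 13.07 to 13.42 (median 13.22) at P5 and at 16.29 to 17.18 (median 16.57) at P10, and rose by 3.40 (SE 0.13, adjusted p = 1.04e-08), or 10.2-fold. The middle probe was at 12.31 to 12.57 and 12.54 to 12.64 and changed by 0.15 (SE 0.05, adjusted p = 0.0386), short of the fold threshold. The first probe was at 7.81 to 8.22 and 7.50 to 8.53 and changed by -0.13 (SE 0.15, adjusted p = 0.581). At P10 the 3′-most probe was at 15.42 to 16.24 (median 16.03) after IL1B, below all PBS arrays, with a change of -0.72 (SE 0.17, adjusted p = 0.022) and a ratio of 0.684 that fell just short of the threshold. The middle probe changed by -0.07 (adjusted p = 0.429) and the first by -0.10 (adjusted p = 0.774). At P5 the 3′-most probe changed by -0.53 (adjusted p = 0.00146, ratio 0.707) after IL1B.

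**Figure D3:**
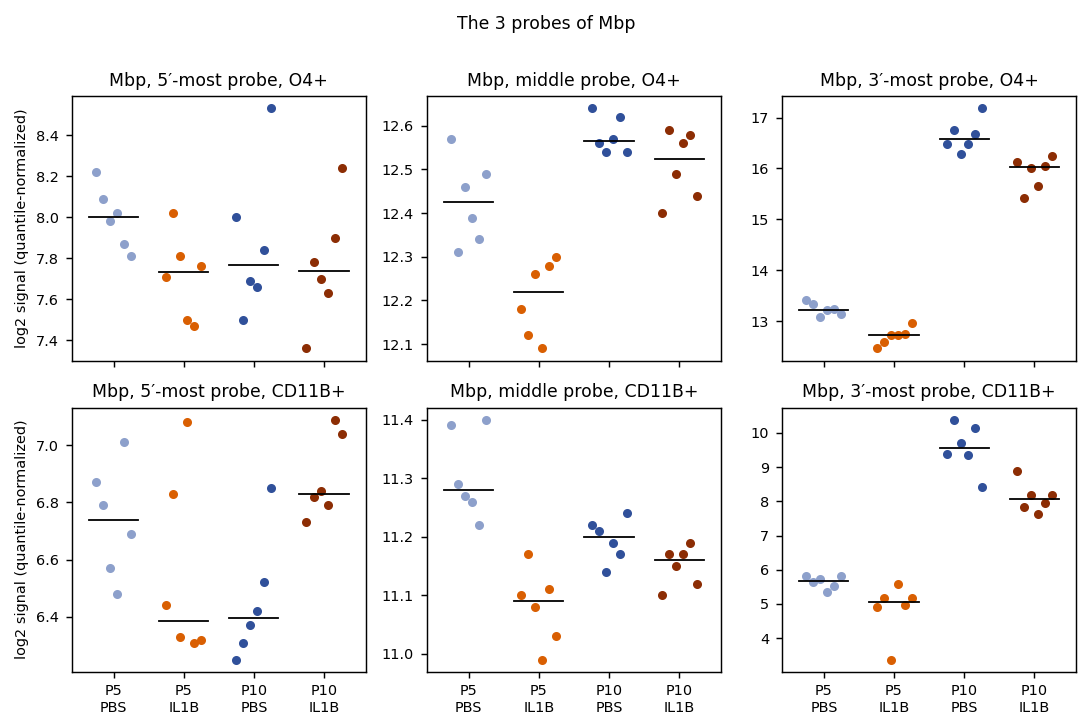
Levels of the 3 Mbp probes, ordered along the gene, in O4+ and CD11B+ cells, log2 quantile-normalized intensity on the vertical axis and the 4 groups of 6 arrays on the horizontal axis, with a dot per array and a line at the median. The 3′-most probe climbs from a median of 13.22 to 16.57 in PBS O4+ cells, while the middle probe stays between 12.09 and 12.64 over all O4+ groups.

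Likeness over arrays set the members beside other genes. Over the 24 O4+ arrays, the genes whose level followed the mean of the structural myelin genes most closely were Etnk2 (Pearson's r = 0.9989), Kndc1 (0.9985), S1pr5, a sphingosine-1-phosphate receptor of oligodendrocytes (0.9978), Prima1 (0.997) and Tmem125 (0.9966). Among the members themselves r with that mean was 0.98 to 0.996 for the 8 other genes and 0.748 for the middle Mbp probe, with 0.992 for the 3′-most probe. The mean includes the members, which raises their r, while the 3′-most Mbp probe is not part of it. These values are a description over arrays that share 2 ages, and most of the spread lay between the ages. Within groups, deviations of the 9 genes from their group means had a median pairwise r of 0.32 (from -0.34 to 0.83).

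The same genes gave signal in CD11B+ cells, at levels far below those in O4+ cells. With all 48 arrays normalized together, 9 of 9 genes were higher in O4+ than in CD11B+ cells of PBS pups at P5 (19.8% of all probes called higher) and 9 of 9 at P10 (22.2%), with no overlap between groups for any of them (20.6% and 21.8% of all probes). The median difference was 4.17 at P5 and 5.56 at P10, beside -0.05 and 0.00 over all probes. At P10 the differences were 6.15 for Mobp (65-fold), 6.10 for Opalin (56.1-fold), 5.86 for Cldn11 (62.8-fold), 5.68 for Tspan2 (50.2-fold), 5.56 for Mal (50-fold) and 5.28 for Mog (38.2-fold). Cnp and Mag differed by 5.19 (37.9-fold) and 5.02 (35.4-fold). Mbp differed by 7.10 (131-fold) on the 3′-most probe and by 1.30 (2.43-fold) on the middle one. At P5, Mbp differed by 1.04 (2.08-fold) on the middle probe and by 7.34 (156-fold) on the 3′-most one, Mog by 1.82 (3.43-fold), Mal by 2.32 (5.2-fold) and Cldn11 by 5.78 (58.4-fold). Mobp was at least 30.5-fold higher and Opalin at least 1.11-fold higher at P5, since in CD11B+ cells neither standing probe was well above background on any PBS array at P5. Another Mobp probe, above background on 1 of 6 of those arrays, gave 5.05-fold. Such a bound sets the group that was measured against the lowest signal measurable on the arrays of the other.

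CD11B+ cells also showed a rise with age. In PBS pups 8 of 9 genes were higher at P10 than at P5 and none lower (4.65% of all probes called higher), with a median change of 2.17 beside 0.00 over all probes, and 5 of 9 without overlap (7.69%). Mobp, whose standing probe was above background on no P5 array, stood at 8.99 to 12.36 (median 11.04) at P10, at least 139-fold higher. Another Mobp probe, above background on 1 of 6 arrays at P5, rose 22.1-fold. Cldn11 went from 7.22 to 8.25 (median 7.57) to 9.43 to 12.07 (median 10.58) and rose by 3.01 (SE 0.38, adjusted p = 0.000204), or 8.08-fold. The P10 arrays of both genes were spread over more than 2 log2 units, a far wider range than on the P10 O4+ arrays.

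Tspan2 rose by 2.17 (4.56-fold), Mag by 2.25 (4.48-fold), Mal by 1.63 (2.94-fold), Mog by 1.41 (2.74-fold) and Cnp by 1.32 (2.40-fold). Opalin was at 1.55 to 6.24 at P10, with 4 of 6 arrays well above background, and at least 1.39-fold higher than at P5. That bound is short of the 1.5 of the rule, so the Opalin call rests on P5 signals at background. With slide as a random block 5 of the 8 calls were kept, those of Mobp, Cldn11, Tspan2, Mag and Cnp, and those of Mog (adjusted p = 0.0573), Opalin (0.0648) and Mal (0.0926) were lost. No slide held CD11B+ PBS arrays of both ages. In IL1B pups 6 of 9 genes rose from P5 to P10 (9.35% of all probes called higher), with a median of 0.78, from Mobp at least 28.3-fold through Cldn11 2.57-fold, Cnp 2.08-fold, Tspan2 1.8-fold and Mal 1.61-fold to Mag 1.59-fold. In that comparison 5 of 9 had no overlap (14%), and Mog changed by -0.16 (SE 0.18, adjusted p = 0.548). The call of Mal was lost with slide or scan day as a random block (0.77, adjusted p = 0.132).

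The spread among P10 CD11B+ arrays of PBS pups ran through the myelin genes together. Replicate 2 was the highest for 8 of 9 genes and replicate 6 the lowest for 7 of 9, and the mean of the members ran from 8.76 in replicate 6 to 11.02 in replicate 2. The lipid enzyme list (9.78 to 10.47), the sheath list (8.43 to 9.10) and the transcription factor list (7.94 to 8.39) were also lowest in replicate 6 and highest in replicate 2. The progenitor, astrocyte, neuron, neutrophil and monocyte, leptomeningeal and erythroid lists were highest in replicate 6, at 10.84, 9.5, 7.70, 11.69, 8.62 and 11.24. The microglia list was at 16.45 to 16.58 over the 6 arrays, also lowest in replicate 6 and highest in replicate 2. The endothelial and Schwann cell lists were highest in replicate 3 and lowest in replicate 4. Over the 24 CD11B+ arrays, deviations of the 9 genes from their group means had a median pairwise r of 0.73 (from -0.27 to 0.93).

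**Figure D4:**
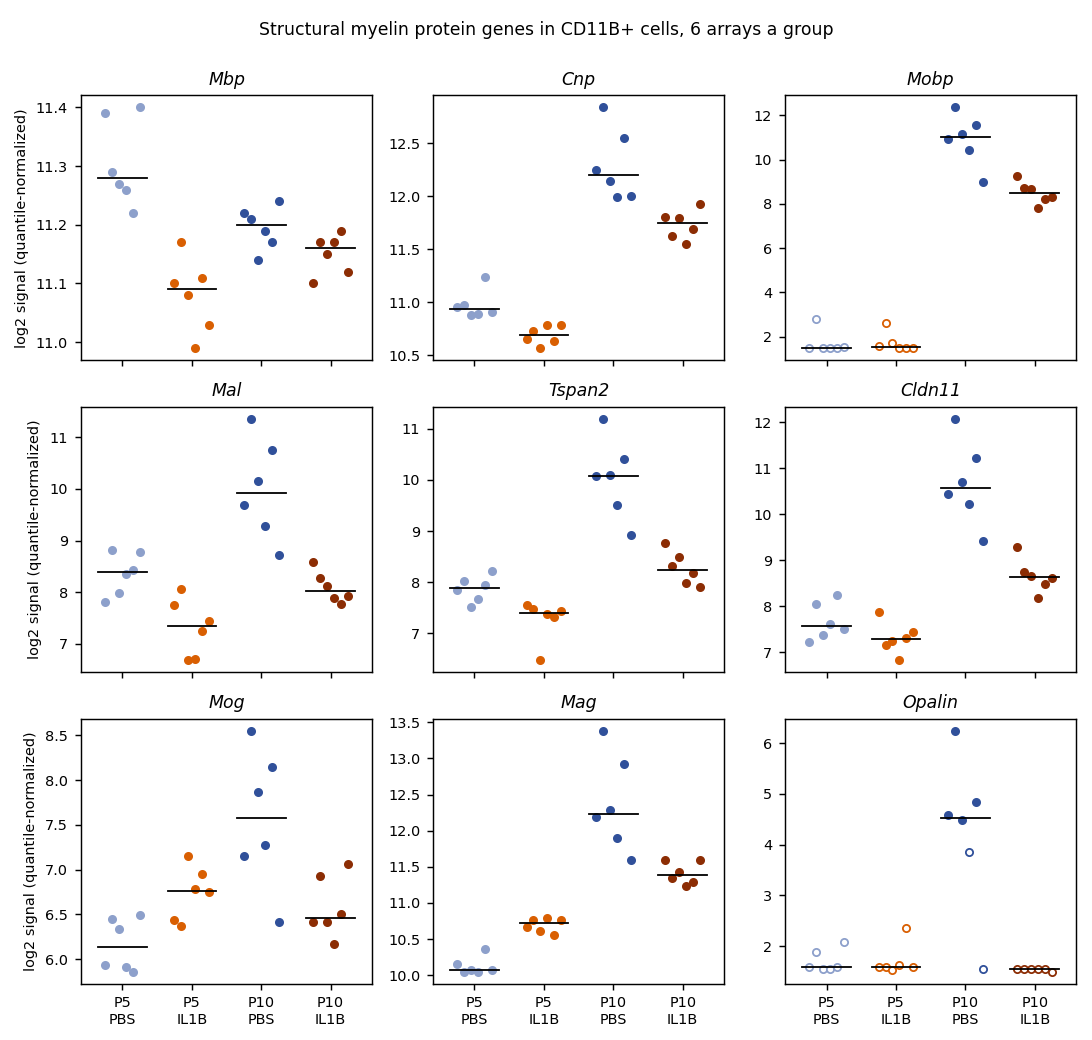
Levels of the 9 structural myelin genes in CD11B+ cells, one panel per gene, log2 quantile-normalized intensity on the vertical axis and the 4 groups of 6 arrays on the horizontal axis, with a dot per array, a line at the median and open dots for arrays not well above background. At P10 the PBS arrays of the genes other than Mbp are spread out, from 9.43 to 12.07 for Cldn11. The IL1B arrays of these genes sit in the lower part of the PBS range or below it. The middle Mbp probe spans only 11.14 to 11.24 after PBS and 11.10 to 11.19 after IL1B.

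At P10, CD11B+ cells of IL1B pups had lower levels of these genes than those of PBS pups. Mobp, Mal, Cldn11, Tspan2 and Opalin fell, 5 of 9 lower and none higher, against 1.08% of all probes called lower. This count includes Opalin, which was above background on no IL1B array. The median change was -1.76, beside 0.00 over all probes. By the adjusted p alone 6 of 9 passed (3.16% of all probes). In 4 of 9 genes the groups did not overlap, against 1.82% of all probes with IL1B lower.

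Cldn11 was at 8.18 to 9.29 (median 8.64) after IL1B against 9.43 to 12.07 after PBS, so every IL1B array lay below every PBS array. It fell by 2.02 (SE 0.38, adjusted p = 0.0184), or 3.84-fold. Tspan2 was at 7.90 to 8.76 (median 8.25) against 8.92 to 11.19 (median 10.09), again without overlap. It fell by 1.76 (SE 0.33, adjusted p = 0.018), or 3.57-fold, and its other probe by 1.52.

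Mal was at 7.77 to 8.59 (median 8.03) against 8.72 to 11.35 (median 9.92) and fell by 1.89 (SE 0.39, adjusted p = 0.0232), or 3.76-fold. The IL1B median of Mal lay below the P5 PBS median of 8.38. Mobp was at 7.83 to 9.26 (median 8.50) against 8.99 to 12.36, with one overlapping stretch, and fell by 2.39 (SE 0.48, adjusted p = 0.0215), or 5.79-fold. Opalin was above background on no IL1B array and on 4 of 6 PBS arrays, at least 1.32-fold lower (adjusted p = 0.0276). That bound is short of the 1.5 of the rule, so the Opalin call rests on IL1B signals at background.

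Mog (-0.99, SE 0.33, adjusted p = 0.0936) and Mag (-0.96, SE 0.26, adjusted p = 0.0533) were not called, and Cnp passed on the p alone (-0.56, SE 0.14, adjusted p = 0.0435, ratio 0.733). Mbp fell by 1.45 (SE 0.32, adjusted p = 0.0265, ratio 0.358) on the 3′-most probe, which passed the call, and changed by -0.04 (adjusted p = 0.471) on the middle one. The first Mbp probe was higher by 0.43 (SE 0.10, adjusted p = 0.0342), at a ratio of 1.35. Along the rise seen in PBS, the P10 IL1B median lay at 64.4% for Cnp, 60.9% for Mag, 35.7% for Cldn11, 22.8% for Mog, 16.0% for Tspan2 and -23.3% for Mal, with 61.8% for the 3′-most Mbp probe. None is given for Mobp and Opalin, whose standing probes were above background on no array at the start of that rise. None is given for the middle Mbp probe, which was not called in it.

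These 5 calls rested on comparisons across slides. Of the PBS arrays 4 lay on a slide without CD11B+ IL1B arrays, and with slide as a fixed block 0 of 9 genes were called (adjusted p from 0.425), as with slide as a random block (adjusted p from 0.064 for Tspan2 and 0.0645 for Cldn11). Within the slide that held 5 IL1B and 2 PBS arrays, 9 of 9 genes had lower values, including Opalin, whose IL1B arrays were at background, with Mobp at -1.73, Cldn11 at -1.66, Mal at -1.61 and Tspan2 at -1.32. Without PBS replicate 3 or without IL1B replicate 5 the count was 2 of 9, and without PBS replicate 6 it was 7 of 9.

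Other lineage genes fell in the same samples. In CD11B+ cells at P10, 10 of 21 sheath, paranode and adhesion genes were lower after IL1B (median -0.54), with Tmem125 down by 2.98, the receptor gene Gpr37 by 1.59 and the cell adhesion gene Nfasc by 1.29. Of 8 lipid enzyme genes 4 were lower (median -0.48), namely the fatty acid hydroxylase gene Fa2h by 1.5, Ugt8a, the galactosyltransferase of cerebroside synthesis, by 1.36, Elovl7 by 1.28 and Gal3st1, the sulfotransferase of sulfatide synthesis, by 0.83. Of 10 progenitor genes 1 was lower, Gpr17 by 0.62 (median -0.03), and 0 of 10 transcription factor genes were called (median -0.25). None of 15 microglia genes was called (median -0.03), with the list at 16.45 to 16.58 after PBS and 16.38 to 16.51 after IL1B.

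Of the other markers in that comparison, 1 of 6 astrocyte genes was higher, 1 of 8 neuron genes and 1 of 8 neutrophil and monocyte genes were lower, and no endothelial, Schwann cell, leptomeningeal or erythroid gene was called. The astrocyte list was at 8.15 to 9.5 after PBS and 8.62 to 9.35 after IL1B, the neutrophil and monocyte list at 9.54 to 11.69 and 10.45 to 11.36, and the erythroid list at 8.81 to 11.24 and 10.25 to 10.87. Median changes over the genes of a list were 1.17 (neutrophils and monocytes), 1.07 (erythroid), 0.71 (leptomeningeal), 0.55 (astrocytes) and 0.3 (neurons). They were -0.25 for endothelial and -0.29 for Schwann cell genes. The called neuron gene and the called neutrophil and monocyte gene thus went against the median of their lists. Pmp2 of the Schwann cell list was above background on no array of any CD11B+ group. Transcripts carried by cells of the oligodendrocyte lineage and transcripts held by CD11B+ cells themselves cannot be told apart in these bulk samples.

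**Figure D5:**
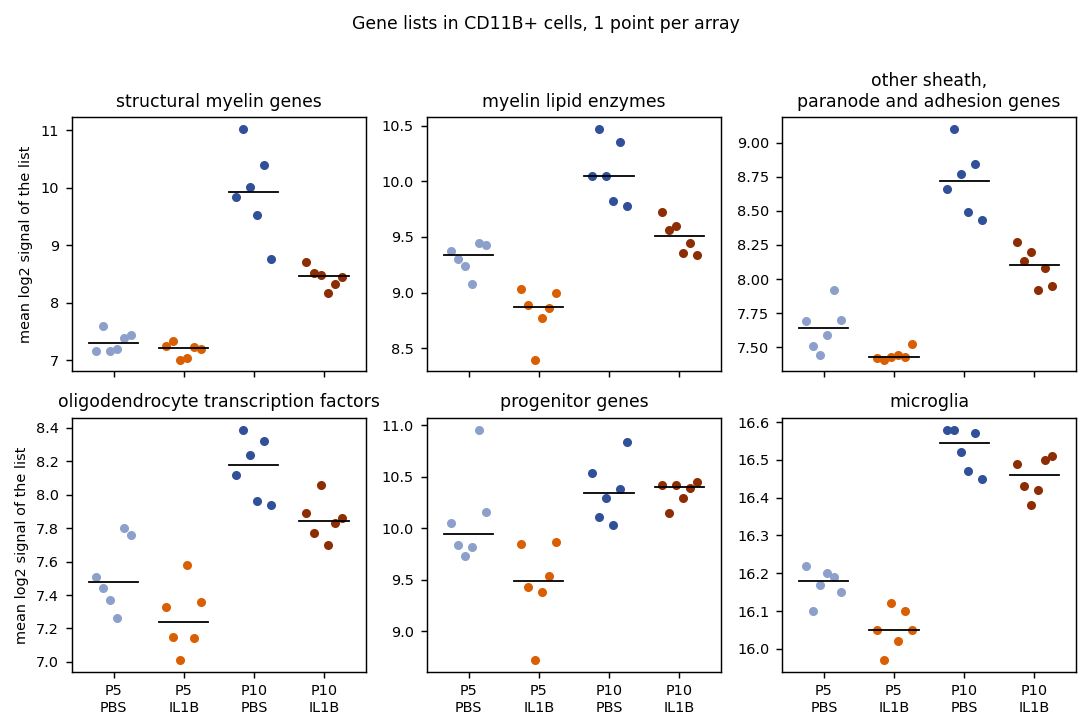
Mean log2 level per array of the structural myelin genes and 5 other gene lists in CD11B+ cells, with the 4 groups of 6 arrays on the horizontal axis, a dot per array and a line at the median. At P10 the myelin mean runs from 8.76 to 11.02 after PBS and from 8.17 to 8.71 after IL1B, while the microglia list stays between 16.38 and 16.58.

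At P5 the CD11B+ cells gave a mixed picture. Mag and Mog were higher after IL1B and Mal was lower, which made 2 of 9 higher (4.05% of all probes) and 1 of 9 lower (5.25%), with a median of -0.22 beside -0.01. By the adjusted p alone 2 were higher (8.06% of all probes) and 4 lower (13.5%). The groups did not overlap for Mag, with IL1B higher (5.86%), nor for Cnp and the middle Mbp probe, with IL1B lower (9.98%). Mag was at 10.56 to 10.79 (median 10.72) after IL1B against 10.05 to 10.37 (median 10.07) after PBS. It rose by 0.57 (SE 0.07, adjusted p = 0.000113), or 1.57-fold. Mog was at 6.37 to 7.15 (median 6.76) against 5.86 to 6.49 (median 6.13) and rose by 0.57 (SE 0.16, adjusted p = 0.0265), or 1.53-fold, both ratios just past the threshold.

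Mal was at 6.69 to 8.06 (median 7.34) against 7.81 to 8.82 (median 8.38) and fell by 1.04 (SE 0.27, adjusted p = 0.0155), or 2.06-fold. Tspan2 (-0.60, adjusted p = 0.0379, ratio 0.709), Cnp (-0.28, adjusted p = 0.0129) and the middle Mbp probe (-0.22, adjusted p = 0.00536) passed on the p alone. Cldn11 did not pass (-0.35, adjusted p = 0.291). The standing probes of Mobp and Opalin were above background on no array of either group. Another Mobp probe, above background on 1 of 6 PBS and 5 of 6 IL1B arrays, changed by 0.39 (SE 0.25, adjusted p = 0.35). With slide as a fixed block Mag was still called (0.65, adjusted p = 0.00739), while Mog (0.22, adjusted p = 0.852) and Mal (-1.41, adjusted p = 0.216) were not. With the deposited normalized values or with folds from mean log2 values neither Mag nor Mog was called higher. Without PBS replicate 1, 4 or 5 or without IL1B replicate 4 or 5, 1 of the 2 genes was called higher.

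Beside these, 8 of 8 neutrophil and monocyte genes were higher in the P5 CD11B+ cells after IL1B, with a list mean of 9.36 to 10.38 after PBS and 13.05 to 13.64 after IL1B. Lower were 2 of 15 microglia genes, 4 of 6 endothelial genes, 2 of 5 Schwann cell genes, 1 of 6 leptomeningeal genes and 1 of 5 erythroid genes. Higher was 1 of 6 astrocyte genes, though the median change of that list was -0.4, and 0 of 8 neuron genes were called. Of the lineage lists, 2 of 21 sheath genes were higher and 5 lower, Fa2h of 8 lipid enzyme genes fell by 1.16, 2 of 10 transcription factor genes (Sox8 and Sox10) were lower, and 1 of 10 progenitor genes was higher and 3 were lower. The part of these in the myelin gene values was not tested.

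The change after IL1B differed between P5 and P10 in CD11B+ cells. The interaction was called in 7 of 9 genes, 6 of them more negative at P10 (6.3% of all probes negative), for Mobp by -2.41 (SE 0.56, adjusted p = 0.0041), Cldn11 by -1.67 (SE 0.44, adjusted p = 0.0105), Mog by -1.56 (SE 0.37, adjusted p = 0.00505), Mag by -1.53 (SE 0.28, adjusted p = 0.000436) and Tspan2 by -1.16 (SE 0.38, adjusted p = 0.0395). The standing probes of Opalin and Mobp were above background on no P5 array, so their P5 values are not measured levels. Another Mobp probe, measured on some P5 arrays, gave -2.43 (SE 0.52, adjusted p = 0.00216). Mbp on the middle probe differed by 0.18 (10.5% of all probes positive). With slide as a fixed block 0 of 9 were called.

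Between cell types, the change after IL1B was tested over all 48 arrays. At P5 it was more negative in O4+ than in CD11B+ cells for Mog (-1, SE 0.19, adjusted p = 0.000905) and Mag (-1, SE 0.13, adjusted p = 8.41e-06), 2 of 9 (3.78% of all probes), of which the call of Mog was lost with slide as a fixed block. At P10 it was less negative in O4+ cells for Mobp (1.66, SE 0.47, adjusted p = 0.0344) and Cldn11 (1.27, SE 0.37, adjusted p = 0.0386), 2 of 9 (3.92% of all probes), and with slide as a fixed or random block for 0 of 9. Without single arrays the P10 count ran from 0 to 5, the latter without CD11B+ PBS replicate 6, and it was 0 without O4+ PBS replicate 5, CD11B+ PBS replicate 3 or 5, O4+ IL1B replicate 4 or 5, or CD11B+ IL1B replicate 4, 5 or 6. The count was 1 without any other O4+ PBS replicate, O4+ IL1B replicate 1, 2 or 3, CD11B+ PBS replicate 1 or CD11B+ IL1B replicate 3. For Mog at P10 the difference was 0.06 (SE 0.37, adjusted p = 0.938) and for Cnp 0.13 (SE 0.17, adjusted p = 0.696). The O4+ and CD11B+ samples came from the same tissue but were fitted as independent samples. With the replicate number as a block 3 of 9 genes were called at each age.

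Over the 24 CD11B+ arrays, Tmem125 (r = 0.9835), Nfasc (0.9695), Adamts4 (0.9685) and Sgk2 (0.9614) were among the 5 genes that followed the mean of the structural myelin genes most closely. Tmem125 and Nfasc were on the sheath list, and Tmem125 was also among the closest in O4+ cells. Of the Mbp probes the 3′-most, which is not part of the mean, had r = 0.945 with it, and the middle one, which is part of it, 0.007. The values are a description over arrays that share ages and slides.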

How the data were processed

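RNA of O4+ and CD11B+ cells was labelled with a single dye and hybridised to Agilent mouse arrays, 48 in all. The deposited scanner tables, made by the authors with Agilent Feature Extraction 10.7.3.1, hold the background-subtracted intensity of each spot. The series' matrix of values, deposited by the authors, holds per spot a ratio of its signal to the array's median signal on a linear scale, as worked out against the scanner values, since its scale and centring are not stated. It served only as an alternative. There were 0 other columns of per-sample values.

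Control spots were left out, spots of a probe were averaged and log2 intensity was quantile-normalized (the normalization named in the study's methods) within a cell type, with R 4.3.3, limma 3.58.1 and the package data.table (version 1.17.8). Each comparison was fitted on its 2 groups of 6 arrays over all 55681 probes, and interactions on their 4 groups, with Benjamini-Hochberg adjustment. A call needed an adjusted p below 0.05 and a ratio of group medians of at least 1.5. Interactions were called on the adjusted p alone. Fold bounds for a group with no array above background follow the lowest measurable signal. The p-values rest on 6 arrays a group, whose number limits the precision, and code was tested on simulated data.

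The members, marker lists and tests were chosen with earlier results of these data known. Every member is named, list genes by up to 4 of the largest called changes, and the genes most like the members' mean by the 5 closest. Some genes that these rules name are not reported here. Groups came from titles and source names. The descriptions of the P10 samples repeat the P5 text, and the P10 title and stage were followed.

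Alternatives tried were 75th percentile scaling, the normexp method for background (offset 50), joint normalization of 48 arrays, the deposited matrix, a filter on dim probes, the methods' equal-variance test, no fold threshold, folds from means, a shared fit, slide and scan day as fixed or random blocks, the replicate number as a block, other choices among a gene's probes, and leaving out single arrays. Slide and scan day as batches are those of the scanner files. Replicate numbers were not taken as pairs, since the labels do not say that a number marks the same animals and in no set of groups did all 6 same-numbered pairs correlate over 0.1. Between O4+ and CD11B+ arrays after IL1B at P10 these correlations ran from 0.07 to 0.4, with 4 of 6 over 0.1. There 6 of 6 arrays correlated best with their own number, and 5 of 6 after PBS at P10, so pairing between cell types is possible.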

Additional observations from a re-analysis of the deposited data

Results flagged for a closer look

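Of 67 sets of 6 arrays examined, 3 had an array set far apart from the other 5, and chance flags about 1 in 20. In CD11B+ cells of PBS pups at P5, replicate 5 stood at 10.37 for Mag, with the next array at 10.15 (gap 0.69 of the group's range), and at 11.24 for Cnp, with the next at 10.98 (0.71). That array was also the highest of its group for the lipid enzyme (9.45), sheath (7.92), transcription factor (7.80), progenitor (10.96), astrocyte (10.31), neuron (8.65), leptomeningeal (10.23) and erythroid (10.76) lists. In CD11B+ cells of IL1B pups at P5, replicate 3 stood at 6.48 for Tspan2, with the next array at 7.31 (0.78).

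The change after IL1B differed between P5 and P10 in CD11B+ cells by the interaction test, P10 minus P5, for Mbp (0.18, middle probe), Mog (-1.56), Mag (-1.53), Mobp (-2.41, standing probe above background on no P5 array), Opalin (-2.71, below background in 3 of the 4 groups), Cldn11 (-1.67) and Tspan2 (-1.16). It differed between cell types, O4+ minus CD11B+, for Mog (-1) and Mag (-1) at P5 and for Mobp (1.66) and Cldn11 (1.27) at P10. With slide as a fixed block none of the CD11B+ differences and none of those between cell types at P10 was called. At P5 the call of Mog was lost.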

How the results depend on the processing

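Over 98 gene results and 2752 alternative fits, 2561 kept direction and call, 154 lost the call (43 of them with slide or scan day), 29 gained one and 8 changed sign. Sign changes were Mal in O4+ cells at P5 (0.13 with scan day fixed, 0.09 without PBS replicate 4, 0.01 without IL1B replicate 3, and down to -0.49 without other arrays), Mobp there (0.16 without PBS replicate 2, and down to -0.79 without others), Mbp in CD11B+ cells for IL1B at P10 (0.01 with 75th percentile scaling, 0.06 with the deposited matrix) and for age in PBS pups (1.18 with the mean of all probes), and Mog for age in IL1B CD11B+ cells (0.01 with the matrix). The causes were not tested.

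The counts of members called moved as follows. O4+ P5, 1 lower: 0 with 75th percentile scaling, normexp, probes above background only or slide fixed, and 6 without a fold threshold. CD11B+ P5, 2 higher: 1 with normexp, a shared fit, slide fixed or random or scan day fixed, 0 with the matrix or folds from means (then 2 lower), and 2 without a fold threshold (then 4 lower). CD11B+ P10, 5 lower: 0 with slide fixed or random. CD11B+ PBS age, 8 higher: 5 with slide or scan day random. O4+ P10 minus P5, 0: 3 with 75th percentile scaling, and 1 with normexp, the matrix or the mean of probes. CD11B+ P10 minus P5, 6: 0 with slide fixed. Cell types at P5, 2: 1 with slide fixed. Cell types at P10, 2: 1 with the matrix or the mean of probes, 0 with slide fixed or random.

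Leaving out single arrays gave 1 to 1 (O4+ P5), 4 to 6 (O4+ P10), 8 to 8 (each O4+ age comparison), 1 to 2 (CD11B+ P5, 1 without PBS replicate 1, 4 or 5 or IL1B replicate 4 or 5), 2 to 7 (CD11B+ P10, 2 without PBS replicate 3 or IL1B replicate 5), 8 to 8 and 5 to 6 (CD11B+ age, PBS and IL1B), 9 to 9 (cell types, each age), 0 to 1 (O4+ P10 minus P5), 5 to 6 (CD11B+ P10 minus P5), 2 to 3 and 0 to 5 (cell types at P5 and P10).

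The replicate block gave 1 of 9 genes higher in CD11B+ cells at P5 (2 without it), 5 lower in O4+ cells at P10 (6), 4 lower in CD11B+ cells at P10 (5) and 3 differing between cell types at each age (2). Pairing was not given by the labels, and at most 4 of 6 same-numbered pairs correlated over 0.1. Every array correlated best with its own number only between cell types after IL1B at P10 (6 of 6). Between cell types this held for 5 of 6 after PBS at P10, 4 of 6 after PBS at P5 and 1 of 6 after IL1B at P5. Signals near background limit Opalin and Mobp at P5 most.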
